A study of Mus musculus with 32 samples.

Results

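Chromatin contacts of the Tfcp2l1 promoter were examined at distances of 10 kb up to 1 Mb in small-intestinal organoids from aged mice. The members are the pairs of the Tfcp2l1 bait fragment with another fragment in that distance range, taken from both deposited contact tables and joined by fragment number. They were 62 of the 30435 fragment pairs of the series and 62 of the 1237 pairs of all 14 baits in the same range. The control-named table listed 60 of them, 59 were in the IFNγ-named table and 57 were in both.

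The material was organoids, self-renewing cultures of intestinal epithelium, from C57BL/6JRj mice aged 20 to 22 months. They were kept for 3 hours either in growth medium with interferon gamma (IFNγ) at 500 pg/ml or in the same medium without it. Contacts were measured by Capture-C, in which crosslinked chromatin is cut with the enzyme DpnII, fragments lying close together are ligated, and the ligation products of chosen baits are enriched and sequenced. Each condition had 4 libraries, from mice O76 (passages 2 and 3) and O77 (passages 4 and 5), and each library was run on 4 lanes. The same 2 aged mice supplied the treated and the untreated cultures. Nothing in the count columns ties a library to its mouse or passage, so p-values over libraries measure the spread between libraries of only 2 animals.

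It is not settled which of the tables holds the treated cultures, because the sample descriptions and the table names point in opposite directions. The tables are therefore called control-named and IFNγ-named, without a condition. Differences are written as IFNγ-named minus control-named, and the opposite subtraction turns the sign. The libraries held 23037 to 37290 reads over all baits and 753 to 1678 reads of the Tfcp2l1 bait. Of these, 119 to 300 reads per library fell in the 10 kb to 1 Mb range, 1516 in all. At this depth a typical fragment pair had a few reads per library. The counts are of reads, and duplicate removal is not described, so 1 molecule may have given several reads.

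Tfcp2l1 encodes a transcription factor of the grainyhead/CP2 family. In mouse embryonic stem cells it belongs to the network that maintains naive pluripotency and acts downstream of LIF and STAT3. A promoter contact measured by Capture-C reports that 2 stretches of DNA were close enough to be ligated. Contact frequency falls steeply with distance along the chromosome, and neither a contact nor its absence says whether a gene is regulated from there.

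The bait is a DpnII fragment of 963 bp at chr1:118628128-118629090 (build mm10). It starts 183 bases after the first base of Tfcp2l1 (ENSMUSG00000026380, chr1:118627945-118685168, + strand), lies in an intron of the gene and is 182 bp from the nearest annotated transcription start site. The first 300 bases of the bait and of the 4 partner fragments with the most reads are given below. Which end of a fragment was ligated is not recorded, and the other ends are not shown. The sequences are read from the GRCm38 assembly on the + strand. Capitals mark the GATC site that DpnII cuts and any match to the motifs searched. The label exon means that some part of the fragment overlaps an exon.

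Tfcp2l1 bait, intron of Tfcp2l1, chr1:118628128-118628427: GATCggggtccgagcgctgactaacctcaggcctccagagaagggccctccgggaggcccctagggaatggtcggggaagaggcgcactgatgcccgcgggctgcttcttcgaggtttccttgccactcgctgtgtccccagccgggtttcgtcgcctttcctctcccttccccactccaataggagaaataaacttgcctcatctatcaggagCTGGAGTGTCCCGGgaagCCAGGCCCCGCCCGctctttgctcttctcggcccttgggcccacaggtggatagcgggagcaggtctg
24.4 kb downstream, exon of Tfcp2l1, chr1:118652354-118652653: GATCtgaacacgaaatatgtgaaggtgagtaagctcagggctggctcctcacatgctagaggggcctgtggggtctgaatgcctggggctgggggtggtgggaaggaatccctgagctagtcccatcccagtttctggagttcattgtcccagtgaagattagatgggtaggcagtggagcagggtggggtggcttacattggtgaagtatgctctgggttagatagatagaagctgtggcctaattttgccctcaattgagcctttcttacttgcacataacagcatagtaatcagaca
254.1 kb downstream, intron of Gli2, chr1:118882063-118882362: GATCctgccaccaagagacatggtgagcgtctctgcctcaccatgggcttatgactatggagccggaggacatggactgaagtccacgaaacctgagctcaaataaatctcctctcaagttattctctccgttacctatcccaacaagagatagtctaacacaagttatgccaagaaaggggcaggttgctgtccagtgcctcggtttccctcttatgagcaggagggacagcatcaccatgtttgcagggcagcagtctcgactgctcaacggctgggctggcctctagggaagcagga
65.8 kb downstream, outside annotated genes, chr1:118693844-118694143: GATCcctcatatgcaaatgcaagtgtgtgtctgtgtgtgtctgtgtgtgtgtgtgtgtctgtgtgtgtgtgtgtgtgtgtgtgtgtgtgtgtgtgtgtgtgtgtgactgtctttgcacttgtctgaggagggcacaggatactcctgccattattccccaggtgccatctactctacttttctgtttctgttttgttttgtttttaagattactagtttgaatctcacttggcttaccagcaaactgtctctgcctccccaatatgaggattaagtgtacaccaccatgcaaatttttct
166.5 kb downstream, outside annotated genes, chr1:118794521-118794820: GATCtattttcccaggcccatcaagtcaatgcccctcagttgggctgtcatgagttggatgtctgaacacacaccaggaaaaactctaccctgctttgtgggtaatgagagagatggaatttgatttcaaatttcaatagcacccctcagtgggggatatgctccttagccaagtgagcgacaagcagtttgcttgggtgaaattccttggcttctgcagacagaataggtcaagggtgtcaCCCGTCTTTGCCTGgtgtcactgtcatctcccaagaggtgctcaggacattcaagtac

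All 62 member fragments started at a GATC site. Motifs were searched on both strands of the first 300 bases. The bait held 2 matches to the TFCP2L1 half-site pair (CCNGNNNNNNCCNG), which start at bases 215 and 233 of the printed run and do not overlap. The fragment 166.5 kb downstream held 1, at base 243, and the other 3 partner sequences held none. Of the 2324 fragments of 300 bp or more in range, 11.4% had this motif, against 7 of 46 member fragments (15.2%). The gamma-activated site of STAT proteins (TTCNNNGAA) was in 10.0% of all such fragments and in 3 of the 46 members (6.52%). A core of the motif of CTCF, a protein that marks many loop ends (CCANNAGNNGGC), was in 1.59% of all and in 1 of the 46 (2.17%). Median GC content was 45% over all fragments and 45.8% over the members. The fragment 65.8 kb downstream carries a long run of gt repeats near its start, and whether this affects the placing of reads was not tested. These matches are letters only, and none of the 5 printed sequences had a match to the STAT or CTCF motif.

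The reads of the Tfcp2l1 bait fell mostly downstream, over the gene body, the stretch behind its 3′ end and Gli2. Downstream of the bait, 35 pairs held 1062 reads, 70.1% of those in range. Upstream, 27 pairs held 454 reads. The tables listed 1.15% of the 5402 DpnII fragments in range, 1.42% of the downstream and 0.917% of the upstream fragments. Of the members, 10 overlapped an exon (16.1%, against 8.09% of all DpnII fragments in range). In introns lay 25 (40.3%, against 41.0%) and outside annotated genes 27 (43.5%, against 50.9%). An overlap of any length counted as exon, and these shares were not matched for fragment length. A single member came within 1 kb of a protein-coding start site, at 960 bp from one of Clasp1. Member fragments had a median length of 510 bp, against 241 bp for all DpnII fragments in range.

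**Figure D1:**
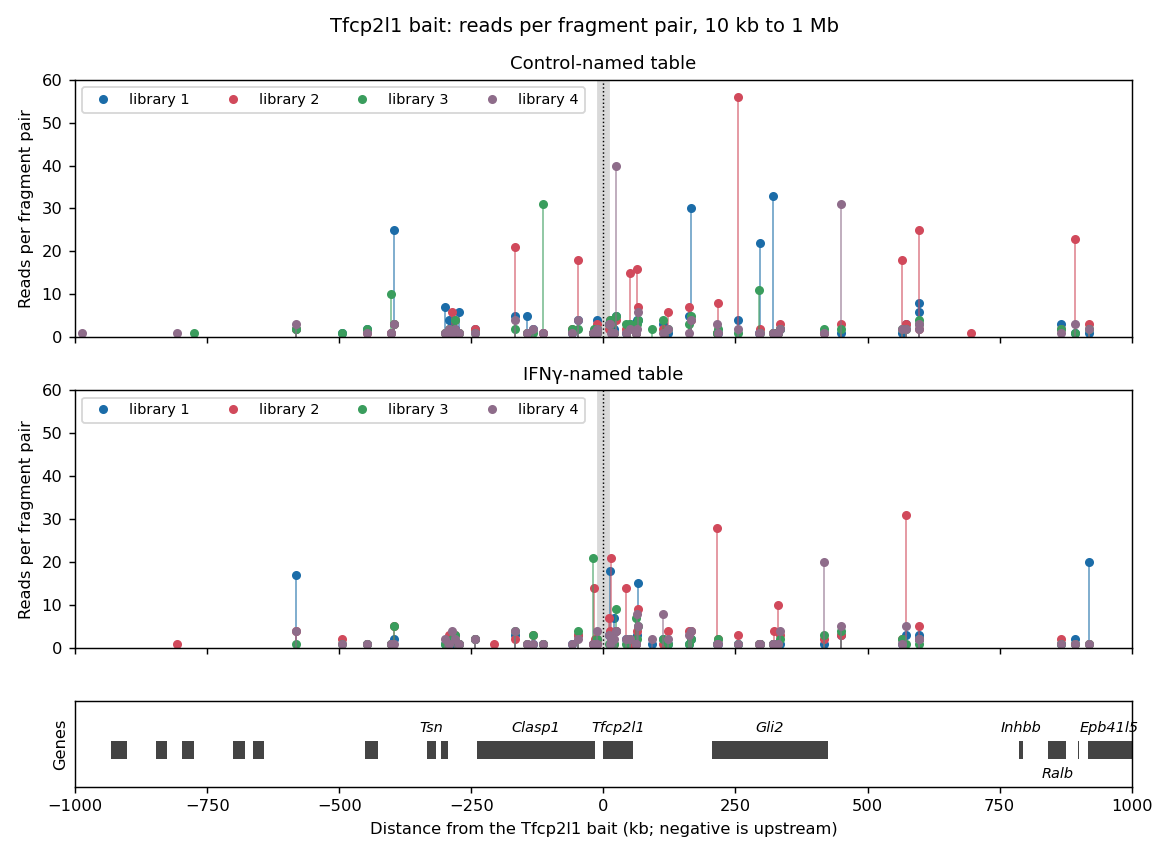
Reads of each Tfcp2l1 fragment pair (y axis) against distance from the bait in kb (x axis), for the 4 libraries of the control-named table (top) and of the IFNγ-named table (middle), with the protein-coding genes in range as bars (bottom, 7 of them named). The grey band is the 10 kb on either side of the bait that was not used; the tallest points are single libraries, up to 56 reads, while most other points lie under 10.

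At its own gene the bait had 243 reads, in 7 of 112 DpnII fragments of Tfcp2l1 that lie in range. The listed fragments were 6.25% of these, against 1.89% in Gli2 (10 of 529) and 1.93% in Clasp1 (10 of 517), both of which extend farther from the bait. The control-named libraries had 19, 32, 22 and 51 reads at Tfcp2l1 and the IFNγ-named libraries 36, 52, 15 and 16. Both tables thus had libraries with few and with many reads there. As a share of the reads in range, Tfcp2l1 took 15.7% ± 10.5 (SD, n = 4) and 17.5% ± 6.28 (SD, n = 4) in the control-named and the IFNγ-named libraries, a difference of 1.77 percentage points (two-sided exact permutation p = 0.8, adjusted p = 0.971).

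The fragment at 24.4 kb downstream, which overlaps an exon of Tfcp2l1, had the most reads of all members, 75. The control-named libraries had 5, 4, 5 and 40 reads there and the IFNγ-named libraries 4, 4, 9 and 4. Control-named library 4 held most of them, and the other 7 libraries overlapped. The log2 difference was -1.37 (SE 0.904, edgeR adjusted p = 0.333). It was 0.36 without control-named library 4 (adjusted p = 0.727). An intron fragment of the gene at 10.3 kb was read more evenly, with 3, 2, 3 and 3 reads in the control-named and 3, 7, 1 and 3 in the IFNγ-named libraries.

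Gli2, a transcription factor of Hedgehog signalling that lies 3′ of Tfcp2l1, had 286 reads, 176 in the control-named libraries (Tfcp2l1 124) and 110 in the IFNγ-named ones (Tfcp2l1 119). The control-named libraries had 67, 73, 23 and 13 reads at Gli2 and the IFNγ-named libraries 9, 55, 14 and 32. Libraries of either table were among the highest and among the lowest. The share of reads in range was 18.5% ± 9.15 (SD, n = 4) and 16.0% ± 8.59 (SD, n = 4), a difference of -2.44 percentage points (exact permutation p = 0.6, adjusted p = 0.971). Of its 10 fragments with reads, 5 had 20 or more reads with over 50% of them from 1 library.

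The Gli2 fragment with the most reads lay in an intron at 254.1 kb. It had 4, 56, 1 and 2 reads in the control-named libraries and 1, 3, 1 and 1 in the IFNγ-named libraries. A single library, control-named 2, held 81.2% of its 69 reads. The log2 difference was -3.04 (SE 1.19), with an unadjusted edgeR p of 0.0271 and an adjusted p of 0.284. Without control-named library 2 it was -0.56 (edgeR adjusted p = 0.656). An intron fragment at 322.0 kb had 33, 1, 1 and 1 reads in the control-named and 1 in each of the IFNγ-named libraries. Here control-named library 1 alone stood apart. By contrast, a Gli2 intron fragment at 334.8 kb, named after its values were seen, had 2, 3, 2 and 2 reads in the control-named and 1, 3, 2 and 4 in the IFNγ-named libraries, with no library apart.

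Clasp1, which encodes a protein that binds the growing ends of microtubules, is the upstream neighbour and had 208 reads. The control-named libraries had 20, 45, 42 and 15 reads at Clasp1 and the IFNγ-named libraries 11, 28, 35 and 12. The ranges overlapped, with 2 high and 2 low libraries in each table. The share of reads in range was 14.5% ± 7.91 (SD, n = 4) and 14.3% ± 10.2 (SD, n = 4), a difference of -0.16 percentage points (exact permutation p = 0.971, adjusted p = 0.971).

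Clasp1 held 3 of the 5 most-read upstream pairs, all in its introns. At 166.9 kb upstream the control-named libraries had 5, 21, 2 and 4 reads and the IFNγ-named libraries 3, 2, 4 and 4. At 48.6 kb upstream they had 4, 18, 2 and 4 and 3, 3, 4 and 2 reads. Control-named library 2 was the high one at both places and the other libraries had a few reads each. At 113.6 kb upstream, control-named library 3 had 31 reads and each of the other 7 libraries had 1.

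The other genes in range had few reads of this bait. Epb41l5, a band 4.1 family protein with a FERM domain, had 31 reads in 1 fragment at 919.2 kb downstream, of which IFNγ-named library 1 held 20 and the others 1 to 3. Its share of reads in range was 0.961% ± 0.379 (SD, n = 4) and 3.83% ± 6.34 (SD, n = 4), a difference of 2.87 percentage points (exact permutation p = 0.886, adjusted p = 0.971). Nifk, a nucleolar protein that binds Ki-67, had 14 reads, the small GTPase Ralb 13, and the predicted genes Gm29106 and Gm28360 had 10 and 1. In all, 8 of 15 protein-coding genes in range had a member. The 7 without a listed pair were Tsn, Inhbb, Tmem185b, B020011L13Rik, Gm28168, Gm28363 and Gm7145.

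**Figure D2:**
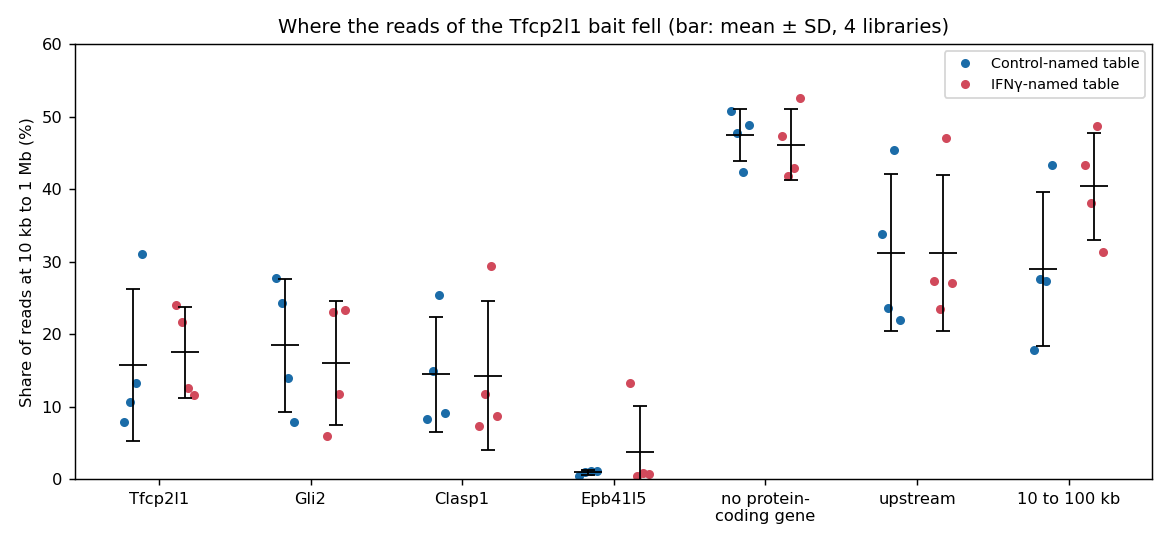
Share of the Tfcp2l1 bait's reads at 10 kb to 1 Mb (y axis, %) that fell at each gene, at no protein-coding gene, upstream of the bait, and at 10 to 100 kb (x axis). Points are the 4 libraries of each table and bars are mean ± SD; the points of the 2 tables overlap in every category.

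Fragments in no protein-coding gene held 710 reads, 46.8% of those in range, in 30 pairs. Their share was 47.4% ± 3.58 (SD, n = 4) in the control-named and 46.1% ± 4.89 (SD, n = 4) in the IFNγ-named libraries (exact permutation p = 0.714). The 10 kb window with the most reads of all was in this stretch, 60 to 70 kb downstream of the bait and behind the 3′ end of Tfcp2l1. This window and the next were singled out after their values were seen and carry no test of their own choice.

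The window at 60 to 70 kb held 125 reads in 4 of its 33 DpnII fragments, which span chr1:118689507-118695057. The control-named libraries had 11, 25, 11 and 10 reads there and the IFNγ-named libraries 22, 16, 15 and 15. The lowest library had 10 reads, a higher minimum than in any other 10 kb window of this bait, and no library held over 20% of them. The window took 6.41% ± 1.56 (SD, n = 4) of the reads in range in the control-named libraries and 11.2% ± 3.38 (SD, n = 4) in the IFNγ-named libraries. In the edgeR fit over all windows its log2 difference was 0.54 (SE 0.512), with an unadjusted p of 0.317 and an adjusted p of 0.493. The authors' modelled background summed over the 4 fragments was 0.678 and 0.643 in the tables, below their merged values of 15 and 17. Listed pairs with few reads can exceed it too: the 1-read pair at 986.4 kb upstream had a merged value of 1 against 0.0237. Only listed fragments enter the sum, so this comparison does not show enrichment in the window.

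Most of this signal came from fragments 64.2 and 65.8 kb downstream. The fragment at 65.8 kb had 4, 7, 4 and 6 reads in the control-named libraries and 15, 9, 5 and 5 in the IFNγ-named libraries. Those ranges met at 5 to 7 reads, and the log2 difference was 0.86 (SE 0.632, edgeR adjusted p = 0.375), or 0.35 without IFNγ-named library 1 (adjusted p = 0.704). The fragment at 64.2 kb had 4, 16, 3 and 2 reads and 3, 4, 2 and 8 reads. No pair was listed in the opposite window, 60 to 70 kb upstream.

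On the upstream side an evenly read stretch lay between Nifk and Clasp1. The window 280 to 290 kb upstream had 5, 10, 6 and 3 reads in the control-named libraries and 3, 5, 5 and 6 in the IFNγ-named libraries, 43 in all. No library stood apart, and the log2 difference was -0.11 (SE 0.557, edgeR adjusted p = 0.911). It was made up of the fragments 286.3 kb and 280.5 kb upstream, which had 22 and 21 reads. These were among 6 pairs with 20 or more reads of which no library held over 30%; the others lay 10.3, 65.8, 162.3 and 597.6 kb downstream. All 6 had reads in each of the 8 libraries, 169 reads together.

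Far from the bait both sides had few listed pairs. Between 600 kb and 1 Mb upstream, 3 pairs held 4 reads, although 1319 DpnII fragments lie there. At the same distances downstream, 4 pairs among 1008 fragments held 78 reads, of which 43 came from a single library each at 892.4 kb (23 reads) and 919.2 kb (20 reads). The upstream stretch holds 5 protein-coding genes and 6 annotated pseudogenes, and the downstream one 4 and 2. Whether reads could be placed uniquely in each stretch was not tested. At the edges of the range, the nearest pairs inside 10 kb were left out with 97 reads at 9.0 kb downstream and 12 at 8.8 kb upstream, and those just outside were kept with 25 reads at 10.3 kb and 12 at 12.3 kb. The farthest pair kept had 1 read, at 986.4 kb upstream, and the nearest beyond 1 Mb had 23, at 1068.8 kb upstream.

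High counts of the Tfcp2l1 bait often came from 1 library. Among its 32 pairs with 20 or more reads, 19 (59.4%) had over 50% of their reads from a single library. For the other 13 baits this was 359 of 837 pairs (42.9%), and Tfcp2l1 had the highest such share of the 14, ahead of bait Ciita_3 at 56.5%. These 19 pairs held 758 reads, 50% of those in range. They were led by all 8 libraries, 11 times by a control-named and 8 times by an IFNγ-named one. The remaining 7 libraries in those pairs were never at 0: of 133 counts, 70 were 1 read, 125 (94.0%) were 1 to 4 reads and the highest was 9. Over all members, 44 of 62 pairs had reads in all 8 libraries. The cause of this pattern was not tested.

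**Figure D3:**
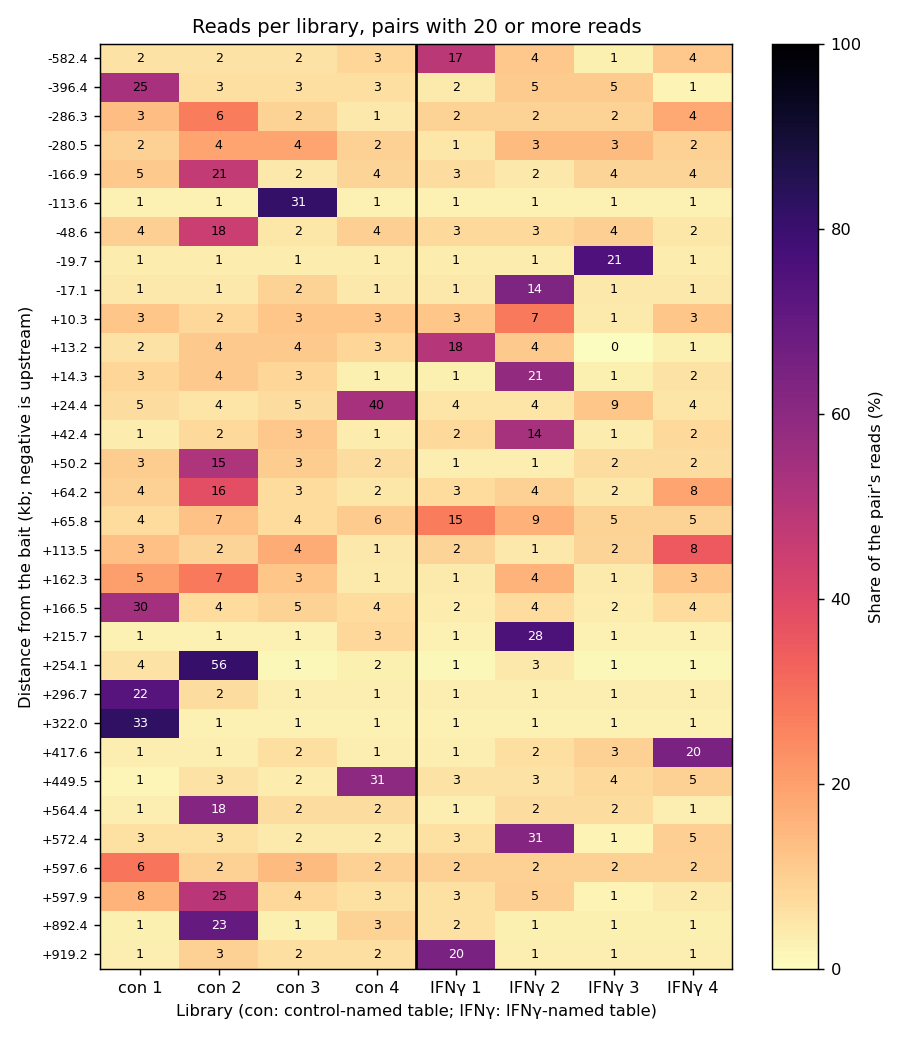
Reads of the 32 Tfcp2l1 pairs with 20 or more reads (y axis, distance from the bait in kb, upstream at the top) in each library (x axis), with the colour giving the library's share of the pair's reads in %. Dark cells are pairs of which 1 library held over 50%, 19 in all; the pairs at 280.5 kb upstream and 65.8 kb downstream show an even colour.

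The comparison of the tables asks whether IFNγ changes the contacts of the promoter. No fragment pair of Tfcp2l1 differed past the threshold. In edgeR's quasi-likelihood test over pairs with 10 or more reads, 0 of 51 Tfcp2l1 pairs had a Benjamini-Hochberg adjusted p under 0.05, against a background of 0 of 3673 pairs of all baits (0%). At an unadjusted p under 0.05 there were 7 of the 51, against 16.6% of all pairs, of which 2 were higher in the IFNγ-named libraries and 5 in the control-named ones. This split changed with the setting: it was 3 and 2 with DESeq2, 3 and 3 without TMM factors, 5 and 0 without IFNγ-named library 4, and 0 and 7 without control-named library 4. The smallest adjusted p was 0.284. DESeq2 also called 0, with 5 of the Tfcp2l1 pairs at an unadjusted p under 0.05. The median log2 difference was -0.43 over the 51 pairs and -0.09 over all pairs tested.

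The 7 pairs with a small unadjusted p followed single libraries. Besides the fragments at 254.1 and 322.0 kb downstream and 113.6 kb upstream, they were those at 19.7 kb upstream and at 50.2, 296.7 and 417.6 kb downstream. At 417.6 kb, near the 5′ end of Gli2, IFNγ-named library 4 had 20 reads and the others 1 to 3. At 296.7 kb, in a Gli2 intron, control-named library 1 had 22 reads and the others 1 or 2. At 50.2 kb, overlapping an exon of Tfcp2l1, control-named library 2 had 15 reads. The other control-named libraries had 3, 3 and 2 and the IFNγ-named libraries 1, 1, 2 and 2. In none of the 51 pairs were the libraries of the tables free of overlap. Many of these counts are low and tied, which makes overlap likely, and no share over all baits is given beside it.

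Neither windows nor the bait as a whole differed past the threshold. Of 36 windows of 10 kb at Tfcp2l1, 0 had an adjusted edgeR p under 0.05 and 5 an unadjusted one, against 0 of 636 windows (0%) and 16.4% over all baits. DESeq2 called 0 windows, with 4 at Tfcp2l1 at an unadjusted p under 0.05. The bait took 3.84% ± 0.242 (SD, n = 4) of all reads in the control-named libraries and 3.90% ± 1.02 (SD, n = 4) in the IFNγ-named libraries. The log2 difference of the bait total was 0.03 (SE 0.173, edgeR adjusted p = 0.922).

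The distribution over distance and side overlapped too. Reads at 10 to 100 kb made up 17.8%, 27.7%, 27.3% and 43.3% of those in range in the control-named libraries and 43.3%, 38.1%, 48.7% and 31.4% in the IFNγ-named libraries. The IFNγ-named libraries were higher on average but control-named library 4 lay among them, and the difference was 11.4 percentage points (exact permutation p = 0.143). Leaving out 1 library at a time gave 7.64 to 16.1 percentage points. The highest was without control-named library 4 (exact permutation p = 0.0571, the smallest possible with 1 library left out). With pairs counted once per library the difference was -1.35. The upstream share was 31.2% ± 10.8 (SD, n = 4) and 31.2% ± 10.7 (SD, n = 4), with an exact permutation p of 1. The share of all bait reads that lay in range was 18.0% ± 3.39 (SD, n = 4) and 15.6% ± 2.91 (SD, n = 4), with an exact permutation p of 0.343. With 4 against 4 libraries no exact permutation p can be under 0.0286, and a single gene's p adjusted over 4 genes cannot be under 0.114 unless other genes also have small p-values.

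The authors' contact score, on which 5 or more was taken as a called contact, picked different fragments in each table. In the control-named table, of 60 Tfcp2l1 pairs, 11 were called (18.3%, against 11.8% over all baits in range). In the IFNγ-named table, of 59 pairs, 6 were called (10.2%, against 10.4%). None of these 17 was called in both tables, while of 215 pairs called for the other baits 29 were called in both (13.5%). Of the 17, 13 had over 50% of their reads from 1 library. Such a library was absent from 2 of 11 Tfcp2l1 calls in the control-named table, against 69 of 139 over all baits. In the IFNγ-named table it was absent from 2 of 6, against 70 of 122. In all 17 the library with the most reads belonged to the table that called them. Each score belongs to 1 table and none of the 17 was called in both, so the selection largely fixes this. With all pairs left out of which 1 library held over 50%, whatever their read number, 35 Tfcp2l1 pairs remained in each table. Of these, 2 were called in each table (5.71%), against 10.2% and 10.4% over all baits. The control-named share thus went from above the background to below it.

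Of the 17 called contacts, 13 lay downstream and 4 upstream. The control-named table called fragments at 396.4, 166.9 and 113.6 kb upstream and at 166.5, 254.1, 296.7, 322.0, 449.5, 564.4, 597.9 and 892.4 kb downstream. The IFNγ-named table called fragments at 582.4 kb upstream and at 65.8, 215.7, 417.6, 572.4 and 919.2 kb downstream. The highest score was 7.66 in the control-named table, at 254.1 kb, and 7.63 in the IFNγ-named table, at 572.4 kb. The fragment at 65.8 kb was the only call within 100 kb; its scores were 4.61 (control-named) and 5.08 (IFNγ-named), on either side of the threshold.

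Several calls outside protein-coding genes also rested on single libraries. At 572.4 kb downstream the control-named libraries had 3, 3, 2 and 2 reads and the IFNγ-named libraries 3, 31, 1 and 5. At 449.5 kb they had 1, 3, 2 and 31 and 3, 3, 4 and 5 reads. At 166.5 kb they had 30, 4, 5 and 4 and 2, 4, 2 and 4 reads. Each time 1 library was far above the other 7, which overlapped between the tables.

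On the upstream side, the fragment at 396.4 kb had 25, 3, 3 and 3 reads in the control-named and 2, 5, 5 and 1 in the IFNγ-named libraries. At 582.4 kb the control-named libraries had 2, 2, 2 and 3 reads and the IFNγ-named libraries 17, 4, 1 and 4. At 597.9 kb downstream they had 8, 25, 4 and 3 and 3, 5, 1 and 2 reads. The last of these had the most even counts among the control-named calls outside genes, with 49.0% of its reads from control-named library 2.

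**Figure D4:**
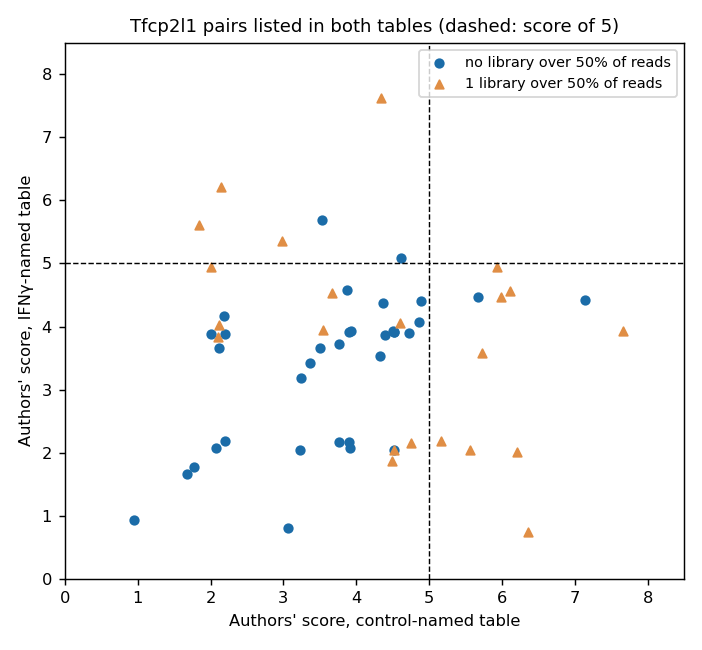
The authors' score of each of the 57 Tfcp2l1 pairs listed in both tables, control-named on the x axis and IFNγ-named on the y axis, with dashed lines at the threshold of 5. Triangles are pairs of which 1 library held over 50% of the reads, 22 of the 57; no pair lies above the threshold on both axes.

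Set against the mean of the other baits, Tfcp2l1 had fewer of its reads in range, fewer of them close by and fewer upstream. In each library the value of Tfcp2l1 was compared with the mean of the other 13 baits, with upstream and downstream taken along each gene's own strand. The SD given for the others is the spread of that mean between libraries. The p-values likewise do not measure the spread between baits, so they do not show that Tfcp2l1 is unusual among them. Of all reads of the bait, 16.8% ± 3.18 (SD, n = 8) lay in range, against 26.0% ± 1.68 for the others, lower in 8 of 8 libraries (two-sided exact paired permutation p = 0.0078125, the smallest 8 libraries can give, and the same after adjustment over 3 measures). Only Phc1 had a lower mean, at 16.5%. When each pair was counted once per library in place of its reads, the difference of -9.20 percentage points became -2.82, with an adjusted exact permutation p of 0.0703.

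Of the reads in range, 34.7% ± 10.4 (SD, n = 8) lay at 10 to 100 kb for Tfcp2l1 and 47.9% ± 1.20 for the mean of the others, again lower in 8 of 8 libraries (exact paired permutation p = 0.0078125). Tfcp2l1 ranked 12 of 14 on this measure, on which the bait means ran from 24.1% (Sox2) to 65.7% (Ciita_1), with Klf4 at 33.3%. The upstream share was 31.2% ± 9.98 (SD, n = 8) against 52.5% ± 1.27, lower in 8 of 8 libraries (exact paired permutation p = 0.0078125). Its mean was the lowest of the 14 baits, below Stat3 at 41.7% and far below bait Ciita_2 at 70.4%. Single libraries of Tfcp2l1 reached from 22.0% to 47.1% and overlapped those of 9 of the other 13 baits, all but Ciita_2, Esrrb.2, Klf2 and Klf4. The upstream difference was -21.2 percentage points, -10.2 without pairs led by 1 library and -19.5 with an upper limit of 600 kb. Baits at different genes differ in what lies around them, and a difference of the promoter cannot be told apart from one of its neighbourhood.

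**Figure D5:**
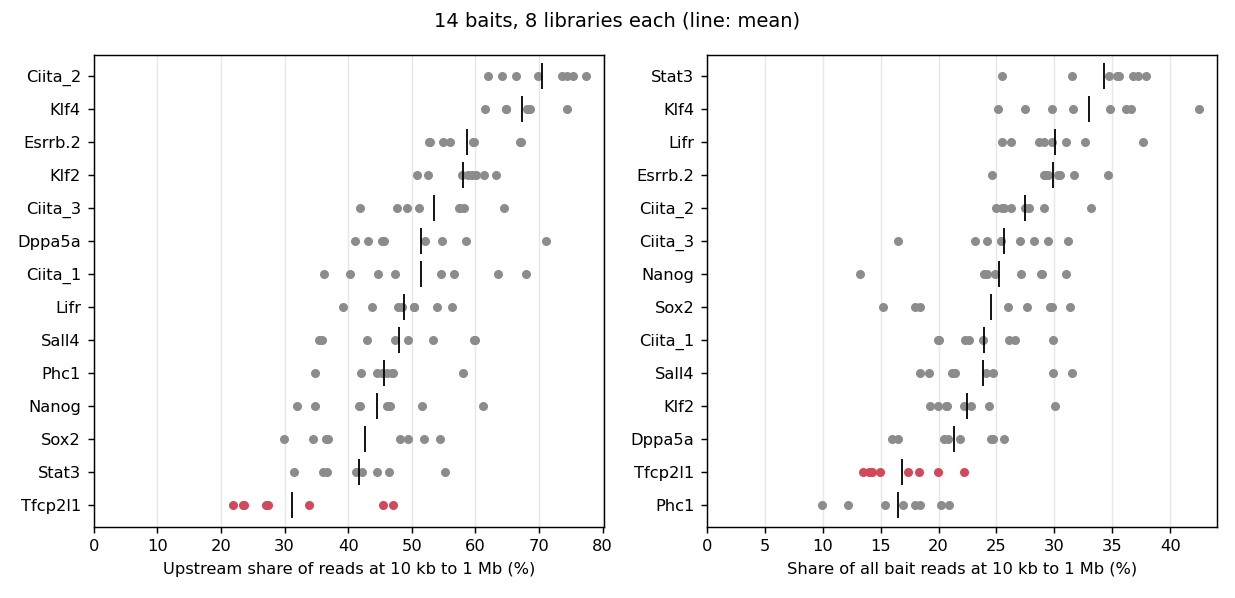
Upstream share of reads in range (left, x axis in %) and share of all bait reads that lie in range (right, x axis in %) for the 14 baits, ordered by mean. Points are the 8 libraries and vertical lines the means; Tfcp2l1, in red, has the lowest mean upstream share, 31.2%, and the lowest but 1 share in range, 16.8%.

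By the shape of its profile, in steps of 100 kb on each side, the Tfcp2l1 bait was most like Stat3 (Pearson r = 0.883 over 20 steps), followed by Phc1 (0.834) and Sall4 (0.818). These are descriptions over steps that share libraries and the fall with distance. In the first step, 10 to 100 kb downstream, Tfcp2l1 had 25.9% of its reads in range, Stat3 35.7%, Phc1 44.2% and Sall4 22.8%. At 10 to 100 kb upstream the shares were 8.83%, 18.0%, 16.2% and 18.3%, and Tfcp2l1 was below all 3. At 200 to 300 kb downstream, over the 3′ part of Gli2, Tfcp2l1 had 9.36% and the others 4.70%, 1.05% and 2.39%. At 500 to 600 kb downstream it had 8.83%, against 0.0702%, 3.37% and 1.43%. Both values lean on single libraries. Each pair's leading library held 75.7%, 44.4%, 81.2%, 68.8% and 73.3% of the reads of the 5 Tfcp2l1 pairs at 200 to 300 kb downstream. For the 4 pairs at 500 to 600 kb downstream it was 62.1%, 62%, 28.6% and 49.0%.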

How the data were processed

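Capture-C contacts of 14 baits were measured in 8 libraries. The submitters' processing notes name Bowtie2 and mm10; not given in the sources used here are versions, duplicate removal, the rule for listing a pair and the caller's settings. Per the file headers, each of 2 deposited tables gives counts of reads per fragment pair in 4 columns, read here as 4 libraries. It also holds a merged value and a contact score, both treated as a score of the authors, a modelled background signal from the authors, and the distance between fragments. The tables were joined by fragment number, with zeros filled in where a table did not list a pair. Fragments were checked against GRCm38 and annotated from the GENCODE genes of that build.

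Counts per pair, per 10 kb window and per bait were fitted over all baits with edgeR 4.0.16 (quasi-likelihood, TMM, 10 or more reads in all, p adjusted by Benjamini-Hochberg with a threshold of 0.05) in R 4.3.3, without a block, and with DESeq2 1.42.0 as an alternative (357 adjusted p-values for pairs were NA). The fits were tested on simulated data with 200 changed features, each shifted in all 4 libraries of a group. Such shifts are unlike pairs led by 1 library, so the outcome, not given here, does not measure power in these data. Shares were compared with exact permutation tests in scipy 1.17.1, adjusted over the 4 genes with 20 or more reads. Genes with 50 or more reads, the 5 most-read pairs of each side, all called pairs and the 3 most alike baits are named. Alternatives changed filters, normalization, window, distance limits, gene assignment and libraries; score thresholds and the 600 kb limit were added after seeing the data. The members and lists were chosen with earlier results of these data known.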

Additional observations from a re-analysis of the deposited data

Results flagged for a closer look

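In groups of 4 libraries, the highest library stood apart from the other 3 by Dixon's criterion in 25 of 56 groups tested. Chance flags about 1 in 20 groups of continuous values, but most groups here are small, tied counts of pairs named for high counts or scores, so that rate is no yardstick for them. No cause was tested. Among shares of reads, IFNγ-named library 1 had 13.3% of its reads in range at Epb41l5, where the others had 0.418% to 0.840%. IFNγ-named library 3 had an upstream share of 47.1%, against 23.4% to 27.3% in the others. IFNγ-named library 2 had 5.42% of all its reads from the Tfcp2l1 bait, against 3.27% to 3.53%.

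The other 22 were single fragment pairs. Upstream, control-named library 1 had 25 reads at 396.4 kb, library 2 had 21 at 166.9 kb and 18 at 48.6 kb, library 3 had 31 at 113.6 kb and library 4 had 3 at 582.4 kb. Downstream, control-named library 1 had 30 reads at 166.5 kb, 22 at 296.7 kb and 33 at 322.0 kb. Control-named library 2 had 56 at 254.1 kb, 18 at 564.4 kb and 23 at 892.4 kb, library 3 had 2 at 417.6 kb, and library 4 had 40 at 24.4 kb, 3 at 215.7 kb and 31 at 449.5 kb. In the IFNγ-named table, library 1 had 2 reads at 892.4 kb and 20 at 919.2 kb, and library 2 had 3 at 254.1 kb, 28 at 215.7 kb and 31 at 572.4 kb. Library 3 had 9 at 24.4 kb and library 4 had 20 at 417.6 kb. In these pairs the nearest of the other 3 libraries had 1 to 5 reads.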

How the results depend on the processing

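No paired analysis was possible because the count columns carry no mouse or passage. Of 309 alternatives over 28 results, 270 kept direction and side of the threshold. The shares' differences between the tables did not pass the test here or under the alternatives run. With 4 libraries a table this says nothing about stability. With 1 library left out, no exact permutation p of these differences can be under 0.0571. Those alternatives could not pass, so their side of the threshold was fixed in advance. With pairs counted once per library the difference was 1.31 percentage points at Gli2, -0.24 at Tfcp2l1, 0.25 at Clasp1, -1.35 for 10 to 100 kb and 1.77 for the share in range. Without pairs led by 1 library it was 1.37 at Gli2 and 1.40 at no protein-coding gene. With a 20 kb lower limit it was -2.91 at Tfcp2l1 and 5.60 at no protein-coding gene. By nearest start site it was 0.48 at Clasp1, and within 600 kb the upstream difference was 0.64.

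Leaving out 1 library at a time gave -5.95 to 0.91 at Gli2, -0.86 to 6.89 at Tfcp2l1, -5.20 to 3.50 at Clasp1, -0.30 to 4.01 at Epb41l5, -3.41 to 0.16 at no protein-coding gene and -5.32 to 4.71 upstream. For 10 to 100 kb it gave 7.64 to 16.1 and for the share in range -3.76 to -0.915, without a change of sign. It gave log2 differences of -0.14 to 0.090 for the bait total, -1.51 to 0.15 at 396.4 kb upstream, and -1.71 to 0.36 at 24.4 kb and -1.69 to 1.06 at 449.5 kb downstream. Against the other baits, the share in range with pairs counted once was -2.82 (adjusted exact permutation p = 0.0703). Called contacts were 27 and 20 at a score of 4 or more (45% and 33.9%, against 45.3% and 41.2% over all baits) and 5 and 2 at 6 or more (8.33% and 3.39%, against 2.88% and 2.65%). They were 2 and 2 without pairs led by 1 library, whatever their read number (5.71% each, against 10.2% and 10.4%). With no filter, 168 of the 30435 pairs of all baits passed the adjusted threshold, 0 of them among the 62 of Tfcp2l1. At so low a share over all baits, 0 among 62 does not set Tfcp2l1 apart. Depth limits these results: most counts per pair and library were 1 to 4 reads.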
